A study of Gasterosteus aculeatus with 62 samples.

Results

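The comparison set 8 courtship males against 8 predator males in the telencephalon of the threespined stickleback (Gasterosteus aculeatus), so that each of the 2 cues given singly was measured against the other. The 16 libraries, chosen by their labels for region and treatment, are part of 62 in the series and of 31 from the telencephalon. Courtship males were shown a live gravid female in a cage, and predator males were shown a model trout with odour cues in a cage. All of them had built a nest in the experimental tank before the trial, and all brains were taken 1 hour after it. The remaining telencephalon libraries came from 8 tradeoff males, shown a female and a model trout together, and from 7 control males, shown empty cages. Each library was the polyadenylated RNA of 1 telencephalon from 1 male, so the spread within a group is the spread between animals. The question is whether the forebrain of a male that could court and that of a male that met a predator held different transcripts an hour later. No genotype, strain or age is given for the males in the labels.

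The telencephalon of a teleost holds the pallium and the subpallium. Parts of the pallium are known for their role in learning, spatial memory and fear, and nuclei of the subpallium belong to the forebrain network that weighs social and aversive stimuli. Transcripts present an hour after a stimulus can include immediate early genes, which neurons switch on within minutes of being active, and the genes those factors control. The deposited files pair no gene identifier with a name, and 0 of the 22295 gene models matched the reference table of stickleback genes (assembly fGasAcu3.hap1.1). Each gene below is known by its identifier alone, with no role, position or sequence. No immediate early gene, neuropeptide or cell type marker could be looked up. In bulk tissue, fewer cells of a type and less RNA per cell cannot be told apart.

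The libraries of both treatments spanned overlapping ranges in depth and read shares, and 1 predator library stood apart in its genes. Depth was 33.3 to 51.1 M counts in gene models (median 35.6 M) in the courtship libraries and 26.9 to 42.0 M (median 36.4 M) in the predator libraries. Depth, the number of gene models with a count, and the shares of reads outside gene models, at several places or ambiguous did not differ past the threshold between courtship and predator males (exact two-sided permutation tests over 12870 regroupings, smallest p = 0.191, smallest adjusted p = 0.715 over 8 measures). The library that stood apart was that of predator male 42. A regional index was computed for each library as the mean log2 level of 500 genes high in the telencephalon minus that of 500 genes high in the diencephalon, both sets chosen in control and tradeoff males only. The index was 1.76 to 2.52 in the 8 courtship libraries and 2.18 to 2.58 in 7 predator libraries, and it was -1.85 in the library of male 42. The diencephalon libraries of the same 16 males lay between -1.18 and -0.85, so the library labelled telencephalon of male 42 lay past them on the diencephalon side. The 500 telencephalon-high genes had a median of 14.2 CPM in it, against a median of 69.8 CPM over the other 15 libraries. The 500 diencephalon-high genes had a median of 42.0 CPM in it, against 12.6 CPM over the other 15 (CPM, a gene's counts per M of counts in its library, with library sizes scaled by TMM). Of 6 genes at 10 CPM or more in it and under 1 CPM in the other 30 telencephalon libraries, 2 reached 10 CPM in a diencephalon library. The library of male 42 chose these 6 genes, and which tissue it held was not tested. The comparisons of courtship with predator telencephala are therefore given with this library and without it. Without it, the depth and read-share measures also stayed short of the threshold (exact permutation tests over 6435 regroupings, smallest p = 0.278).

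**Figure D1:**
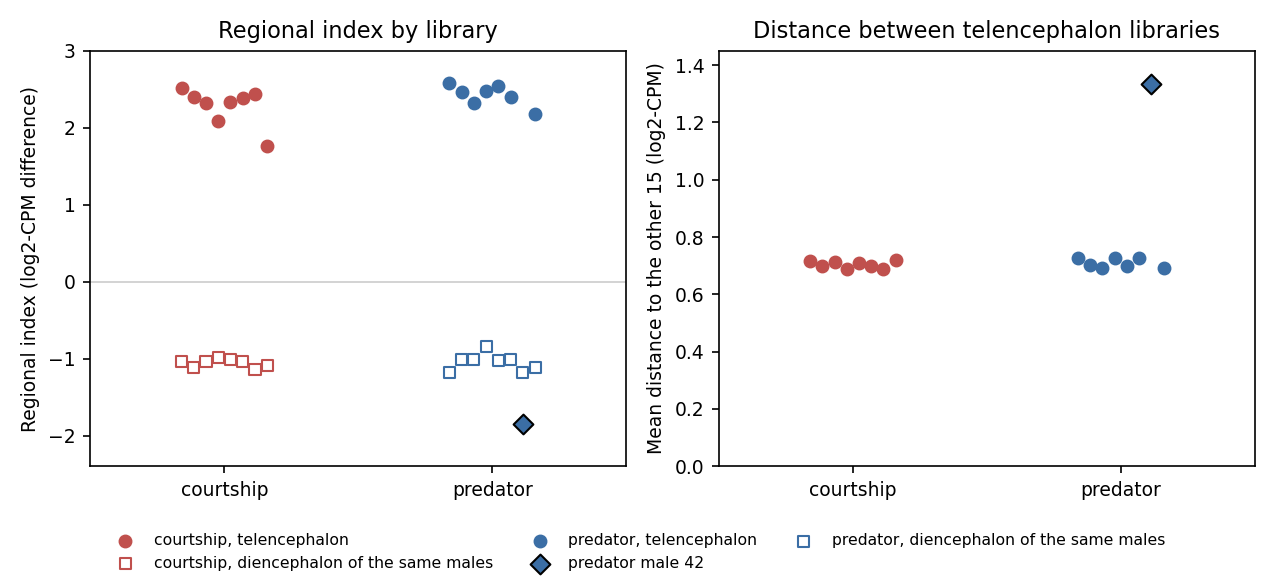
Left, the regional index (difference of mean log2-CPM) of each telencephalon library (filled) and of the diencephalon library of the same male (open squares), courtship and predator males. Right, the mean distance of each telencephalon library to the other 15 (root mean square difference of log2-CPM). The library of predator male 42 (diamond) has an index of -1.85 and a distance of 1.33, while the other 15 lie at 1.76 to 2.58 and at 0.687 to 0.728.

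Males given the same cue were not detectably more alike than males given different cues. The distance between 2 libraries was taken as the root mean square difference of log2-CPM over 18714 genes. Without male 42, the mean distance was 0.661 between a courtship and a predator male, 0.658 between 2 courtship males and 0.667 between 2 predator males. Between-group minus within-group distance was -0.00097 (exact two-sided permutation test over 6435 regroupings, p = 0.999). The spread among courtship males and that among predator males did not differ past the threshold either (difference -0.0088, exact permutation p = 0.588). With male 42, between-group minus within-group distance was -0.0044 (exact permutation p = 0.536). The mean distance was then 0.658 within the courtship group and 0.838 within the predator group, and the difference of -0.18 did not pass (exact permutation p = 0.230). The regional index averaged 2.28 ± 0.243 in courtship males and 2.42 ± 0.136 in predator males without male 42 (SD, n = 8 and 7), a difference of -0.14 (exact two-sided permutation p = 0.189). With male 42 the predator mean was 1.89 ± 1.52 (SD, n = 8) and the difference was 0.39 (exact permutation p = 0.906). In every regrouping the library of male 42 falls in 1 group or the other. Its own values alone therefore could not make the tests with male 42 pass.

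Courtship and predator telencephala differed in no gene past the threshold. All 31 telencephalon libraries were fitted in their 4 treatment groups, and 0 of 18714 genes (0%) passed an adjusted p of 0.05 (quasi-likelihood test of edgeR, adjusted over all tested genes by Benjamini-Hochberg; smallest 0.428). Without male 42, 0 of 18687 genes (0%) passed, and the smallest adjusted p was 0.167. At an unadjusted p under 0.05 stood 929 genes (4.96%) with all libraries and 659 (3.53%) without male 42, where the nominal rate of 0.05 would give 935.7 and 934.4. Of the 929 genes, 316 (1.69%) were estimated higher in courtship males and 613 (3.28%) lower. Without male 42 the split was even, with 344 (1.84%) higher and 315 (1.69%) lower in courtship males.

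The surplus of genes estimated lower in courtship males came with the library of male 42. For 494 of the 613 genes, that library held the highest level of the 8 predator libraries. Without it, 147 of the 613 kept an unadjusted p under 0.05 and the same direction, and 103 had the opposite sign. Of the 316 genes estimated higher in courtship males, 184 kept an unadjusted p under 0.05 and the same direction, and 0 changed sign. For 167 of the 316, the library of male 42 held the lowest level of the 8 predator libraries. That library helped to choose the 613 and the 316 genes, and the matching shares over all tested genes were not counted. The 494 and the 167 are therefore a description only. Estimates past 2-fold numbered 93 higher and 371 lower in courtship males with all libraries, and 144 higher and 140 lower without male 42.

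**Figure D2:**
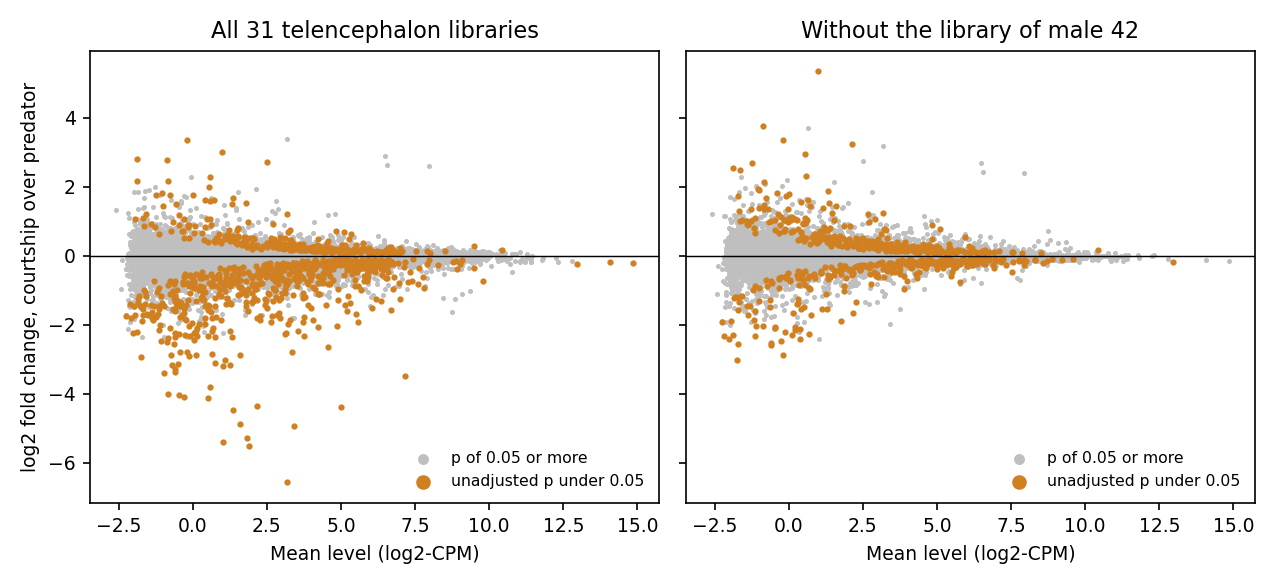
log2 fold change of courtship over predator males (vertical) against the mean level of each gene in log2-CPM (horizontal), with all 31 telencephalon libraries (left) and without the library of male 42 (right); each point is a gene, and orange points have an unadjusted p under 0.05. The orange points are 929 on the left, with 613 of them below 0, and 659 on the right, with 315 below 0; 0 genes pass the adjusted threshold in either panel.

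Taken gene by gene, the data bounded the size of a difference for most genes. The 95% intervals are for single genes, with no allowance for the number of genes. Without male 42, differences above 1.5-fold were outside the 95% interval of 13951 of 18687 genes (74.7%), and differences above 2-fold outside that of 16280 (87.1%). With male 42 these shares were 69.6% and 84.1% of 18714 genes. The median standard error was 0.10 without male 42 and 0.12 with him, on the log2 scale. Genes under 1 CPM in the control and tradeoff telencephalon had a median standard error of 0.46 without male 42, and genes of 100 CPM or more had 0.058.

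Gene groups that could be formed without names included the 2 regional sets, whose medians lay on opposite sides of 0 and changed sides when male 42 was left out. The 500 telencephalon-high genes had a median log2 fold change of 0.088 with all libraries and -0.059 without male 42, beside 0.00090 and 0.0034 over all genes. The 500 diencephalon-high genes had medians of -0.28 and 0.081. Without male 42, 22.6% of the telencephalon-high and 69.6% of the diencephalon-high genes were estimated higher in courtship males, beside 51.5% of all genes. At an unadjusted p under 0.05, 83 diencephalon-high genes (16.6%) were lower in courtship males with male 42 and 2 (0.4%) without him, beside 3.28% and 1.69% of all genes. Without male 42, 21 telencephalon-high genes (4.2%) were lower in courtship males and 1 (0.2%) was higher, beside 1.69% and 1.84% of all genes. The regional index is the difference between the means of these same 2 sets. The 0.14 by which it was lower in courtship males, given above, and the shifts of the sets are therefore not separate results. Over males the index difference did not pass (exact two-sided permutation p = 0.189), and the genes of a set are not replicates. When the index was added to the fit without male 42, the medians were -0.015 for the telencephalon-high and -0.0067 for the diencephalon-high genes. The index is built from these 2 sets, so smaller medians follow from its use as a covariate and are no finding. In that fit 678 genes (3.63%) stood at an unadjusted p under 0.05 with 0 past the threshold. The 459 gene models named for the Y chromosome had a median of -0.0052 without male 42. Of these, 8 (1.74%) were higher and 4 (0.87%) lower in courtship males at an unadjusted p under 0.05, beside 1.84% and 1.69% of all genes. With all libraries 461 such models had a median of 0.0197, with 8 (1.74%) higher and 10 (2.17%) lower, beside 1.69% and 3.28% of all genes. Models of the Y chromosome can share reads with a close X copy, so their values are uncertain. The 301 other models named by the MAKER pipeline had a median of -0.013 without male 42, with 5 (1.66%) higher and 8 (2.66%) lower. With all libraries their median was 0.0199, with 3 (0.997%) higher and 7 (2.33%) lower. The medians of both these groups of models thus also changed sides.

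Named genes are the pair with the smallest p in each direction with all libraries, the pair in each direction without male 42, and genes that another tool called. Without male 42, ENSGACG00000010476 had the smallest p of all genes. Its telencephalon level was 29.0 to 56.6 CPM in the 8 courtship males (median 44.8) and 59.6 to 86.9 CPM in 7 predator males (median 71.6). All 8 courtship males lay below the lowest of these 7 predator males, and the library of male 42 held 4.32 CPM. Its log2 fold change was -0.77 (SE 0.143; edgeR adjusted p = 0.167) without male 42 and -0.59 (SE 0.286; edgeR adjusted p = 0.921) with him, so it did not pass in either fit. DESeq2 called it without male 42 (log2 fold change -0.77, adjusted p = 0.00100 by DESeq2) and not with him. The voom fits with quality weights did not call it (adjusted p = 0.053 by voom without male 42 and 0.713 with him). DESeq2 called 2 of 18714 genes (0.0107%) with all libraries and 2 of 18687 (0.0107%) without male 42, which makes 3 different genes, all estimated lower in courtship males and described here. Set beside controls, whose level was 25.6 to 42.2 CPM (n = 7), the log2 fold change without male 42 was 0.26 for courtship males (SE 0.144; edgeR adjusted p = 0.886) and 1.03 for predator males (SE 0.150; edgeR adjusted p = 0.00280), where 4 of 18687 genes (0.0214%) passed. With male 42 neither contrast passed. They were 0.27 for courtship males (SE 0.297) and 0.86 for predator males (SE 0.299; edgeR adjusted p = 0.9999), and 0 of 18714 genes (0%) passed between predator and control males. These comparisons share the control libraries. The lowest control level was that of male 30, whose telencephalon library had been listed as lying between the regions. With males 42 and 30 both left out, the log2 fold change of courtship over predator males was -0.77 (SE 0.139; edgeR adjusted p = 0.123). The contrasts with controls are not given without male 30. Tradeoff males, which met both cues, had 47.6 to 101 CPM (median 66.4), and 7 of 8 lay above the highest courtship male. Over the same controls, their log2 fold change without male 42 was 1.02 (SE 0.146, edgeR adjusted p = 0.00222). The number of genes that passed between tradeoff and control males is not given here. In the diencephalon ENSGACG00000010476 had 13.2 to 25.3 CPM in courtship males and 18.2 to 35.9 CPM in predator males, ranges that overlapped. The log2 fold change there was -0.38 (SE 0.173, edgeR adjusted p = 0.743), with the same sign as in the telencephalon.

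ENSGACG00000001076 was lower in courtship males in estimate, and its predator males fell into a high and a low set. It had 1.42 to 4.60 CPM in the 8 courtship telencephala. Predator males 23, 24, 33 and 44 had 14.9, 9.33, 12.4 and 13.6 CPM in the telencephalon, while males 17, 34 and 37 had 2.99, 1.90 and 1.80 CPM, within the courtship range. The same 4 males were high in the diencephalon, at 16.1, 11.3, 13.7 and 14.1 CPM, against 4.06, 3.91 and 3.39 CPM in males 17, 34 and 37. Male 42 had 15.2 CPM in the telencephalon library and 5.33 CPM in the diencephalon library. The 8 tradeoff and 7 control telencephala had 1.76 to 5.52 and 1.31 to 5.75 CPM, so none of them reached the 4 high predator males. The log2 fold change was -1.81 with all libraries (SE 0.394; edgeR adjusted p = 0.428) and -1.66 without male 42 (SE 0.397; edgeR adjusted p = 0.999). DESeq2 called it with all libraries (adjusted p = 0.0242 by DESeq2) and not without male 42.

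ENSGACG00000016293 rested on a pair of predator males. The 8 courtship males had 0.134 to 0.532 CPM (5 to 20 counts) in the telencephalon. Predator males 24 and 44, both also high for ENSGACG00000001076, had 7.44 and 5.52 CPM (267 and 219 counts), male 42 had 1.26 CPM, and the other 5 predator males had 0.230 to 0.566 CPM. In the diencephalon courtship males had 0.178 to 1.03 CPM, predator males 24 and 44 had 16.9 and 8.40 CPM, and the other 6 predator males had 0.349 to 0.712 CPM. The pair thus lay above every courtship male in both regions. Its log2 fold change in the telencephalon was -2.80 (SE 0.630; edgeR adjusted p = 0.428) with all libraries and -2.88 (SE 0.642; edgeR adjusted p = 0.951) without male 42. DESeq2 called it in both fits (adjusted p = 0.0242 and 0.0287 by DESeq2). Without male 24 the log2 fold change was -2.13, and without male 44 it was -2.41.

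Among the genes estimated higher in courtship males, ENSGACG00000020944 had the smallest p of that direction with all libraries and rested on 1 male. Courtship male 38 had 21.1 CPM (1078 counts), and the other 7 courtship males had 0.560 to 1.19 CPM (20 to 40 counts), against 0.590 to 0.857 CPM in the 8 predator males. Male 38 was also high in the diencephalon, at 25.3 CPM, where the other 15 males had 0.413 to 1.20 CPM. The log2 fold change was 2.29 (SE 0.584; edgeR adjusted p = 0.694), and without male 38 it was 0.31 (adjusted p = 0.934 by edgeR). Without male 42 it was 2.32 (SE 0.621; edgeR adjusted p = 0.999). ENSGACG00000016793 had a small estimate that did not pass in either fit. It had 47.4 to 55.8 CPM in courtship males and 43.3 to 48.5 CPM in predator males, and 7 of 8 courtship males lay above the highest predator male. Its log2 fold change was 0.16 (SE 0.0423; edgeR adjusted p = 0.696) with all libraries and 0.15 (SE 0.0427; edgeR adjusted p = 0.999) without male 42, and tradeoff and control males spanned 43.7 to 53.5 and 46.4 to 54.1 CPM.

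ENSGACG00000012022 had the smallest p of the genes estimated higher in courtship males without male 42. It had 20.7 to 33.4 CPM in courtship males (median 30.0) and 17.0 to 25.6 CPM in 7 predator males (median 21.5), and 7 of 8 courtship males lay above the highest of the 7. The library of male 42 held 57.9 CPM, above all courtship males. The log2 fold change was 0.50 without male 42 (SE 0.132; edgeR adjusted p = 0.999) and 0.21 with him (SE 0.191; edgeR adjusted p = 0.923). Courtship males lay close to controls, with a log2 fold change of 0.036 over them without male 42 (SE 0.131), and predator males lay at -0.46 against the same controls (SE 0.136; edgeR adjusted p = 0.519). With male 42 these values were 0.043 (SE 0.198) and -0.16 (SE 0.198; edgeR adjusted p = 0.9999). Control telencephala spanned 16.7 to 36.8 CPM and tradeoff telencephala 18.4 to 33.1 CPM, so low levels were not restricted to predator males. The lowest of each, control male 20 and tradeoff male 28, had 26.3 and 28.6 CPM in the diencephalon, also the lowest of their groups there. In the diencephalon the level was 39.8 to 47.9 CPM in courtship males and 28.7 to 45.8 CPM in predator males, a log2 fold change of 0.29 (SE 0.109; edgeR adjusted p = 0.743).

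**Figure D3:**
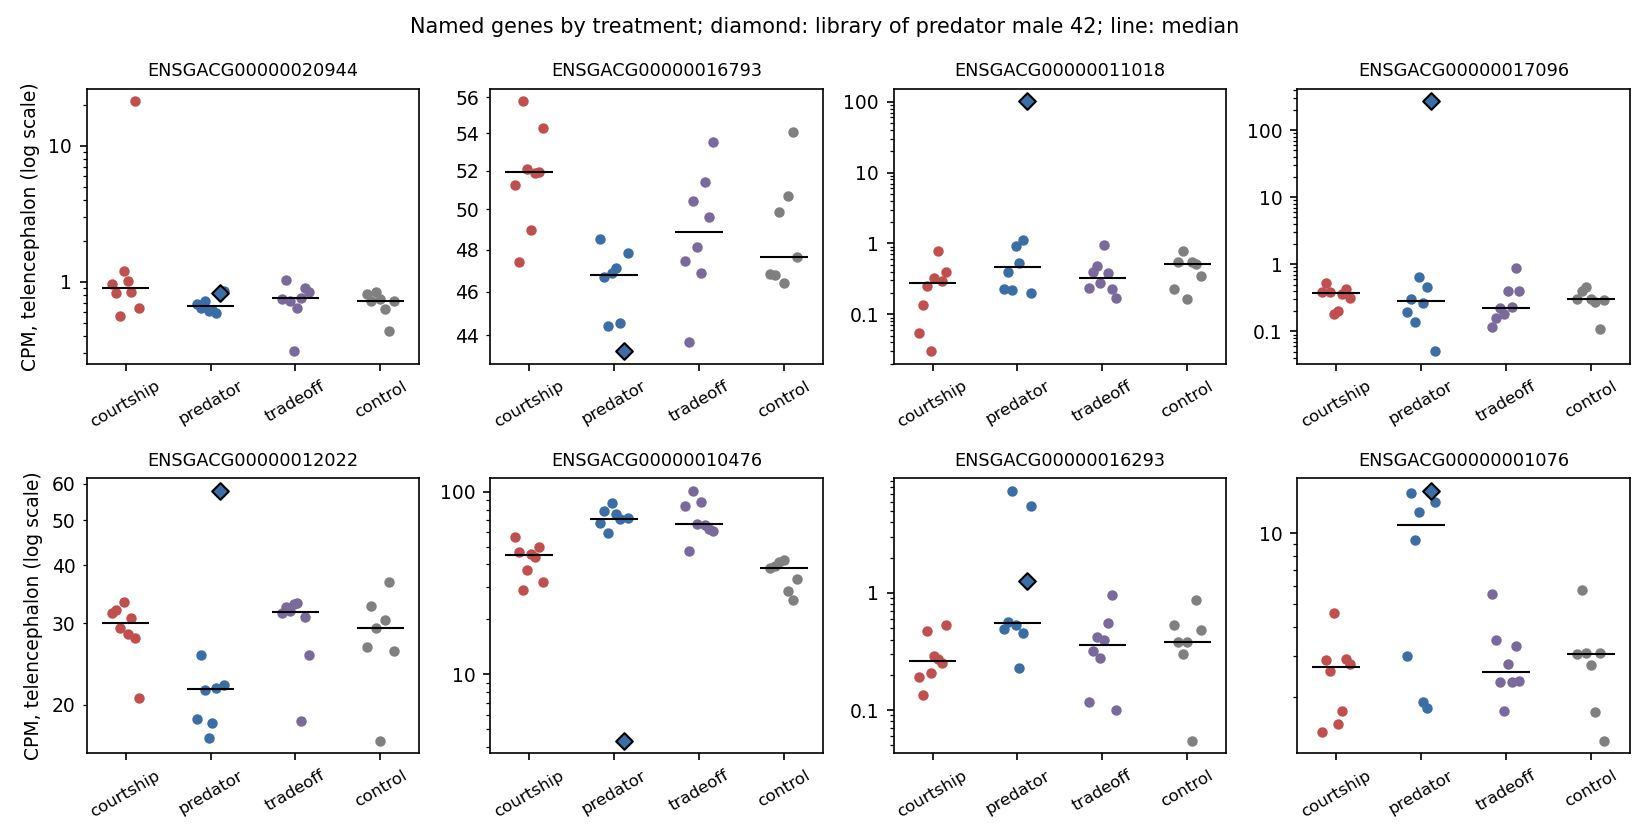
CPM (log scale) of the 8 named genes in each of the 31 telencephalon libraries, by treatment; lines are group medians and the diamond is the library of predator male 42. For ENSGACG00000001076 the high predator libraries lie at 9.33 to 15.2 CPM above courtship, tradeoff and control libraries, and for ENSGACG00000011018 and ENSGACG00000017096 the diamond alone lies at 101 and 268 CPM.

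Both genes with the smallest p with all libraries were set by the library of male 42. ENSGACG00000011018 had 0.0299 to 0.787 CPM (1 to 26 counts) in courtship males and 0.202 to 1.13 CPM in 7 predator males, and 101 CPM in the library of male 42. Its log2 fold change was -5.51 with that library (SE 1.16; edgeR adjusted p = 0.428) and -0.86 without it (SE 0.500; edgeR adjusted p = 0.999). In the diencephalon it had 25.1 to 48.5 CPM in courtship males and 7.16 to 370 CPM in predator males, where males 17 and 42 had 334 and 370 CPM and the other 6 at most 46.5. A control male, male 12, had 288 CPM in the diencephalon, so such levels were not restricted to predator males. ENSGACG00000017096 had 0.179 to 0.534 CPM in courtship males, 0.0504 to 0.646 CPM in 7 predator males and 268 CPM in the library of male 42. Its log2 fold change was -6.56 with that library (SE 1.39; edgeR adjusted p = 0.428) and 0.27 without it (SE 0.426; edgeR adjusted p = 0.999), a change of sign. In the diencephalon ENSGACG00000017096 had 0.875 to 5.04 CPM in courtship males and 0.860 to 39.4 CPM in predator males. The diencephalon library of male 42 held 3.80 CPM of it.

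Few genes separated the groups completely. With all libraries, the levels of 8 courtship and 8 predator males did not overlap for 1 of 18714 genes (0.00534%). It was ENSGACG00000014939, with 16.80 to 20.1 CPM in courtship males and 13.4 to 16.75 CPM in predator males, a log2 fold change of 0.19 (SE 0.0553; edgeR adjusted p = 0.771). Without male 42 it was 5 of 18714 genes (0.0267%), 3 higher and 2 lower in courtship males, named here after their values were seen. Beside ENSGACG00000014939 and ENSGACG00000010476 these were ENSGACG00000000899 (27.7 to 52.0 CPM in courtship and 12.4 to 26.6 CPM in predator males), the model maker-chrVII-exonerate_protein2genome-gene-11.6 (1.09 to 1.58 and 1.06 at most) and ENSGACG00000002075 (5.76 to 7.76 and 7.94 to 12.3 CPM). All 5 had adjusted p-values of 0.167 or more by edgeR. Among so many genes some can separate by chance, and these counts were not set against a chance rate.

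The same males gave a second brain region, and the comparison there also called no gene. In the diencephalon 0 of 18942 genes (0%) passed between courtship and predator males (edgeR), and 1238 (6.54%) stood at an unadjusted p under 0.05. Without the diencephalon library of male 42 the counts were 0 (0%) and 1129 (5.97%) of 18918. The 8 courtship and 8 predator diencephala did not overlap for 2 genes (0.0106%). Of the 648 genes that had an unadjusted p under 0.05 in the telencephalon without male 42 and were also tested in the diencephalon, 110 had an unadjusted p under 0.05 there with the same sign and 8 with the opposite sign. Over the 18532 genes of the telencephalon fit that were also tested in the diencephalon, 3.05% were higher and 3.44% lower in courtship males at that threshold. Both regions came from the same males, so the 110 genes are not independent evidence of a response to the cues. The difference between regions in the courtship and predator comparison was tested in a fit of all 62 libraries. No gene of 19321 (0%) passed, and 511 (2.64%) had an unadjusted p under 0.05. Without the telencephalon library of male 42 the counts were 0 (0%) and 464 (2.4%) of 19294. With the male as a block in the fit they were 0 (0%) and 616 (3.19%) with male 42. They were 0 (0%) and 1104 (5.72%) of 19297 when both libraries of male 42 were left out of the block fit. DESeq2 called 8 genes (0.0414%) with male 42, all lower in the telencephalon contrast, and 0 without his telencephalon library. At an unadjusted p under 0.05 DESeq2 had 506 (2.62%) and 522 (2.71%). A single fit of all 62 libraries called 61 genes (0.316%) between courtship and predator telencephala, and in 59 of them the library of male 42 was the highest of the 31. That library helped to choose the 61 genes, and the same share over all genes was not counted. Without the telencephalon library of male 42 and with no block, the difference between regions was -0.24 on the log2 scale for ENSGACG00000001076 (SE 0.505). It was 0.28 for ENSGACG00000016293 (SE 0.957) and -0.39 for ENSGACG00000010476 (SE 0.230), each with an adjusted p of 0.9998 by edgeR. That fit ignores the pairing of regions within a male. With the male as a block and both libraries of male 42 left out, the values were -0.023 (SE 0.193), 0.16 (SE 0.496) and -0.39 (SE 0.151). Their adjusted p-values were 0.993, 0.971 and 0.860 by edgeR.

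**Figure D4:**
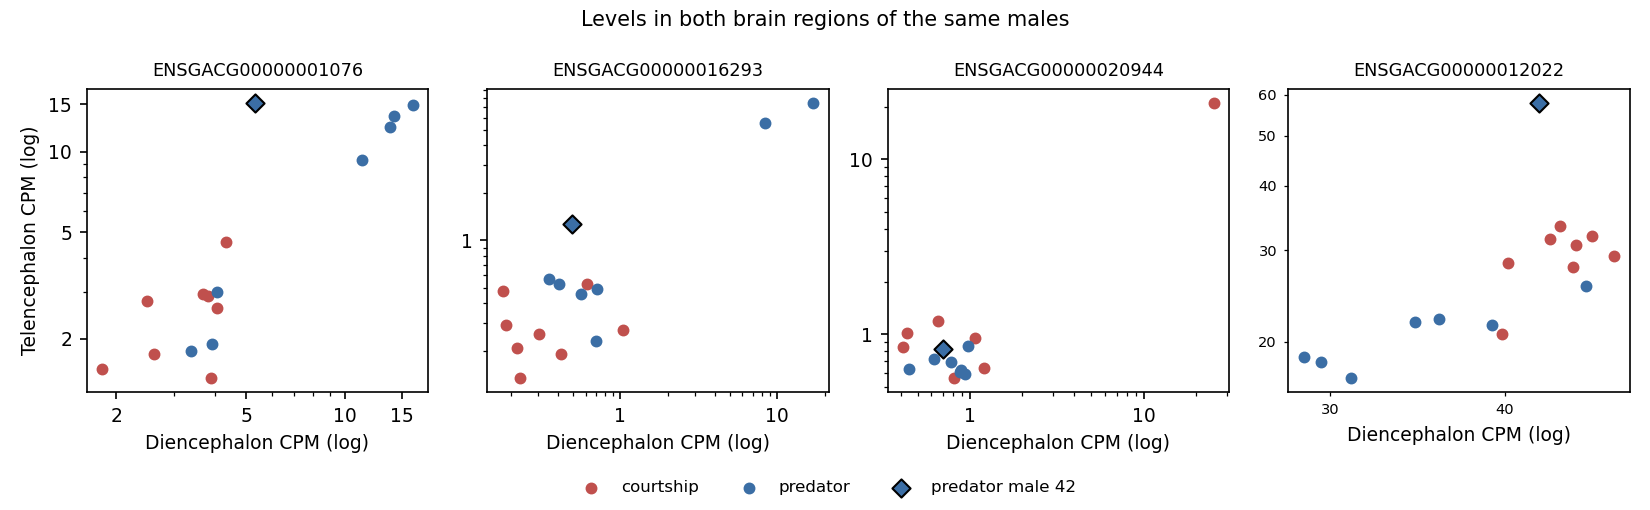
CPM in the telencephalon (vertical, log scale) against CPM in the diencephalon (horizontal, log scale) of the same male for 4 named genes; each point is a courtship or predator male, and the diamond is predator male 42. For ENSGACG00000001076 predator males 23, 24, 33 and 44 lie at 9.33 to 14.9 and 11.3 to 16.1 CPM, for ENSGACG00000016293 males 24 and 44 stand apart, and for ENSGACG00000020944 courtship male 38 does.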

How the data were processed

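RNA sequencing of polyadenylated RNA with a stranded kit was done on 1 lane, per the labels' protocols. The authors deposited 1 file of unnormalized counts for each library, not pooled, and used STAR and HTSeq, per the submitters' processing notes. Not given in the sources used here: tool versions, genome build, annotation and strand setting, so overlapping antisense genes cannot be assumed to be separated. The 5 tally lines of each file were dropped. In these 16 libraries they included reads in no gene model (40.5% to 47.4%), reads at several places (5.79% to 14.1%) and ambiguous reads (0.631% to 0.811%).

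Genes passed filterByExpr (minimum count 10, minimum total 15), libraries were scaled by TMM, and robust quasi-likelihood fits of edgeR 4.0.16 (R 4.3.3) were tested with a Benjamini-Hochberg threshold of 0.05. log2 fold changes are courtship over predator, and log2-CPM used a prior count of 2. The SE of an edgeR estimate was its absolute log2 fold change over the square root of its quasi-likelihood F. DESeq2 1.42.0 and voom with quality weights (limma 3.58.1) were alternatives, as were RLE scaling, no filter, 1 fit of all 62 libraries, only the 16 libraries, each library left out and the regional index as a covariate. A further fit left out male 42 and control male 30, and called 0 of 18737 genes. Male 30, listed as lying between the regions, was among the control males that chose the regional sets. The edgeR, voom and DESeq2 fits of the telencephalon libraries without male 42 were checked on simulated counts with planted changes. The other fits were not checked in this way. DESeq2 replaced outlying counts in 212 genes, in 171 of them in the library of male 42. Single values were compared by exact permutation tests.

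The members, gene groups, naming rule and tests were chosen with earlier results of these data known. The 2 pairs of genes with the smallest p per fit were named, with genes called by a fit with 5 calls or fewer. Gene lists fixed by symbol were not tested, since no identifier matched. Libraries of both regions with 1 number come from the same male; their deviations from group means correlated at 0.214 to 0.550 in the 16 males (mean 0.383, and -0.0249 between males). The difference between regions had 0 called genes with and without the male as a block.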

Additional observations from a re-analysis of the deposited data

Results flagged for a closer look

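Of 46 groups of 8 libraries tested, 11 had a highest or lowest library far from the other 7, measured as its gap to the nearest library over the range of the group; chance flags about 1 group in 20. That rate is no yardstick for the 11, since several of the genes were named for small p-values that the same libraries set, and male 42 was known beforehand to stand apart. In 6 of the 11 the library was that of predator male 42. These were its regional index of -1.85, its mean distance of 1.33 to the other libraries, and its levels of ENSGACG00000011018 (101 CPM), ENSGACG00000017096 (268 CPM), ENSGACG00000012022 (57.9 CPM) and ENSGACG00000010476 (4.32 CPM). Courtship male 38 had the greatest depth, 51.1 M counts, and the highest level of ENSGACG00000020944 in both regions, 21.1 CPM in the telencephalon and 25.3 CPM in the diencephalon. Predator male 17 had the highest diencephalon level of ENSGACG00000017096 (39.4 CPM), and courtship male 41 the lowest telencephalon level of ENSGACG00000012022 (20.7 CPM). The part of depth in the level of male 38 was not tested.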

How the results depend on the processing

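The count of called genes was 0 in 26 of 29 fits of the telencephalon comparison. DESeq2 called 2 with all libraries and 2 without male 42, and 1 fit of all 62 libraries called 61, 60 of them lower in courtship males. In 59 of the 61 the library of male 42, which helped to choose them, was the highest telencephalon library, and 0 were called when it was left out of that fit. Genes at an unadjusted p under 0.05 numbered 500 when only the 16 libraries were fitted and 1716 in the fit of all 62, and 659 to 1229 when 1 library was left out in turn. Each of these leave-one-out fits called 0 genes. DESeq2 called 1 gene in the diencephalon, ENSGACG00000001076, and 8 for the difference between regions; without male 42, an alternative chosen after seeing the data, it called 0 there. Under the replicate block by male, the difference between regions had 0 called genes, with all libraries and without male 42, and 616 and 1104 genes at an unadjusted p under 0.05. Leaving out the library of male 42 turned the regional index difference to -0.14, and to -0.19 with 200 genes per direction. The spread among courtship minus predator males turned to 0.00047 as 1 minus the Spearman correlation without male 42; the cause was not tested. ENSGACG00000017096 turned to 0.27 to 0.41 (0.27, 0.28, 0.36 and 0.41) in the fits without male 42 and by DESeq2 (0.27), which replaced that library's count, and voom (0.36), which weights libraries by quality, with all libraries; over the fits that left out 1 library in turn it ran from -6.77 to 0.27. No other named gene changed sign in the alternatives run. Low counts limit genes under 1 CPM.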

Other observations

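The 659 genes that passed an unadjusted p of 0.05 without male 42 were also followed in the other treatments; since courtship and predator libraries chose them, their values there are a description with no test. The 344 genes estimated higher in courtship males had a median log2 fold change over control of 0.093 in courtship males and -0.18 in predator males. The 315 genes estimated lower had medians of -0.091 in courtship males and 0.17 in predator males. These comparisons share the control libraries. Tradeoff males, which entered neither side of the choice, lay near controls, with medians of -0.0019 over the 344 genes and 0.016 over the 315. They were estimated above control for 48.8% of the 344 and 56.8% of the 315, beside 48.9% of all genes tested. In the diencephalon of the same males, 264 of 340 genes estimated higher (77.6%) and 74 of 308 estimated lower (24.0%) were above 0, beside 48.6% of all genes.

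Of the 659 genes, 104 had an estimate past 2-fold, 53 higher and 51 lower in courtship males. For 23 of these 104, 1 library held at least 4 times the level of the next highest of the 15, 14 of them with courtship and 9 with predator males higher. Courtship male 41 was that library for 6 genes, courtship male 32 and predator male 23 for 4 each, and no other male for more than 2. ENSGACG00000020944, described above, is the 1 such gene of courtship male 38. The 15 libraries helped to choose the 104 genes, and the same shares over all tested genes were not counted. These counts by library are therefore a description only.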
